A study of Mus musculus with 16 samples.

Results

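The genes described here are 10 nuclear genes of mitochondrial biogenesis, chosen by symbol out of 41388 genes in the count table: Tfam, Tfb1m, Tfb2m, Polrmt, Polg, Ssbp1, Ppargc1a, Ppargc1b, Gabpa and Coq10b. The set was chosen for the rise of Tfam and Coq10b on tamoxifen, set against other biogenesis genes. Every value that compares tamoxifen with no tamoxifen is therefore a description of these genes and not a test of them. RNA was sequenced from the quadriceps muscle of C57BL/6 mice (C57BL6J in the study's methods) at postnatal day 36, in 4 groups of 4 mice. WT mice carried an intact Mtm1 gene, and Mtm1 KO mice carried a deletion of an Mtm1 exon made by homologous recombination, which models X-linked myotubular myopathy. WT + TAM and Mtm1 KO + TAM mice ate standard chow with 40 mg/kg tamoxifen from day 21, and the untreated WT and Mtm1 KO mice ate it without the drug. The labels name no restriction of the deletion to a tissue, they give added sucrose for the tamoxifen diet, and each library came from whole muscle, in which fewer cells of a type and less RNA per cell cannot be told apart.

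Mitochondria carry a small circular genome, but the proteins that copy, package and transcribe it are made from nuclear genes. TFAM coats this DNA and bends its promoters, POLRMT with TFB2M starts transcription, POLG with SSBP1 copies the DNA, and TFB1M methylates the ribosomal RNA of the organelle. The amount of these proteins is set in part by the transcription factor GABP and by the coactivators PGC-1α and PGC-1β, which are known in skeletal muscle for raising mitochondrial content with exercise and energy demand. COQ10B binds coenzyme Q, the lipid that carries electrons along the respiratory chain.

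The 14 libraries that the study analysed were used, numbered 2 to 4 in WT, 5 to 8 in WT + TAM, 9 to 11 in Mtm1 KO and 13 to 16 in Mtm1 KO + TAM. They held 25702605 to 29847222 counts each. Mtm1, the deleted gene, had 282 to 459 counts in libraries of WT mice, treated or not, and 53 to 97 in libraries of knockout mice. Of the remaining libraries, the one labelled WT replicate 1 had 74 Mtm1 counts, within the range of the knockout libraries and against its label, and Mtm1 KO replicate 12 had 85. The study left both out and gave no reason for it, and their values are given apart. All 9 muscle fiber markers were found in every library, with a summed level of 104500 to 271300 CPM (read counts relative to library size, scaled between libraries by the trimmed mean of M-values).

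Promoter sequences are shown first, because GABP binds upstream of many of these genes. RefSeq windows of 250 bases before the gene start (build GRCm38.p6) were at hand for 9 of the 10 members. All windows held a median of 6 CpG (C followed by G) and 52.4% GC. The GABP site CCGGAAG, which holds a CpG, was searched as these exact letters on both strands. It occurred in 5 of the 9 windows and in 6.90% of 32817 windows of all genes. These 5 windows held 13 to 23 CpG and 46.8% to 72.0% GC, and windows of like CpG content were not compared for such matches. The stretches around these matches are printed in the direction of the motif, with the matched letters in capitals:
Tfam, chr10:71238075-71238101, minus strand: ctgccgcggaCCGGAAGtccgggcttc
Polrmt, chr10:79746608-79746634, plus strand: tctgcgactgCCGGAAGcgctcttagg
Polg, chr7:79466295-79466321, minus strand: aggacctcacCCGGAAGtccctctgca
Ssbp1, chr6:40471411-40471437, plus strand: gctccgtgcgCCGGAAGcgagccgctg
Gabpa, chr16:84835021-84835047, minus strand: gctgagggacCCGGAAGcacttaccct
The match began 38 to 47 bases before the RefSeq start in Tfam, Polrmt, Polg and Ssbp1, and 93 bases before it in Gabpa. In Polrmt and Gabpa it lay on the strand opposite to the gene. GENCODE places the start of Tfam 236 bases further upstream than RefSeq, and the stretches of Tfam, Polg, Ssbp1 and Gabpa lie inside the GENCODE gene models.

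The window of Coq10b held no CCGGAAG, and neither did those of Tfb1m, Tfb2m and Ppargc1a. For each site only the letters as printed were searched, so a window without a match may still hold variants of the site. No member's window held GCGCATGCGC (the palindrome of NRF1), AAGGTCA (the site of estrogen-related receptors), GGTCANNNTGACC (the estrogen response element) or TGACGTCA (the cAMP response element), which occurred in 0.777%, 4.08%, 0.064% and 1.55% of all windows. Coq10b is printed whole because it is the member that differed most with tamoxifen in WT muscle. Its capitals mark TGACG, which is part of the cAMP response element, read on the opposite strand as CGTCA. This motif was looked for only after the window had been read.
Coq10b, chr1:55052520-55052769, plus strand, the strand of the gene: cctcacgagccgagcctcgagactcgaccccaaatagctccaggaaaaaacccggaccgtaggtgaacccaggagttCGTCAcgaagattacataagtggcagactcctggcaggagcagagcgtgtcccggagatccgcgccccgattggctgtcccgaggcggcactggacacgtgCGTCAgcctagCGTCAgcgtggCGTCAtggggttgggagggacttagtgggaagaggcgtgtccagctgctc
The Coq10b window held 4 such matches. At least 4 were found in 0.137% of all windows and at least 1 in 17.7%. TGACG also holds a CpG, and the Coq10b window held 21 CpG against a median of 6 over all windows. Among the other members Tfb1m held 2, Polg and Ppargc1a 1 each, and Tfam and the remaining windows 0. A match of letters is not a bound site, and no binding was measured.

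Tfam, which packs the mitochondrial genome and activates its promoters, was at 45.1, 50.5 and 44.4 CPM in the 3 WT libraries. It was at 97.6, 90.7, 90.1 and 93.0 CPM in the 4 WT + TAM libraries, all above every WT library. In the 3 Mtm1 KO libraries Tfam was at 48.9, 36.0 and 38.0 CPM, and in the 4 Mtm1 KO + TAM libraries at 72.8, 68.9, 51.1 and 63.3 CPM. The treated knockout libraries lay above the untreated ones and below all WT + TAM libraries. Mean Tfam was 46.7 ± 3.36 CPM (SD, n = 3) in WT and 92.9 ± 3.42 (n = 4) in WT + TAM, a fitted log2 fold change of 0.99 (SE 0.098), or 1.98-fold. In Mtm1 KO mice the means were 41.0 ± 6.96 (n = 3) and 64.0 ± 9.46 (n = 4), a log2 fold change of 0.63 (SE 0.16), or 1.55-fold. By size of log2 fold change Tfam stood 353rd of 14544 genes in WT mice and 519th of 15062 in Mtm1 KO mice.

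Coq10b, the coenzyme Q binding protein, was at 23.0, 27.0 and 19.6 CPM in WT and at 67.8, 50.7, 58.8 and 62.7 CPM in WT + TAM. The lowest WT + TAM library was above the highest WT library. Coq10b was at 40.3, 21.5 and 25.5 CPM in Mtm1 KO and at 31.8, 34.0, 33.1 and 38.9 CPM in Mtm1 KO + TAM. Here the groups overlapped, because untreated replicate 9 was higher than each treated library. The means were 23.2 ± 3.67 CPM (SD, n = 3) and 59.99 ± 7.22 (n = 4) in WT and WT + TAM, a log2 fold change of 1.37 (SE 0.14), or 2.58-fold, 160th of 14544 genes. In Mtm1 KO mice they were 29.1 ± 9.90 (n = 3) and 34.4 ± 3.09 (n = 4), a log2 fold change of 0.23 (SE 0.19). Without replicate 9 this value was 0.52, and without replicate 10 it was 0.06.

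**Figure D1:**
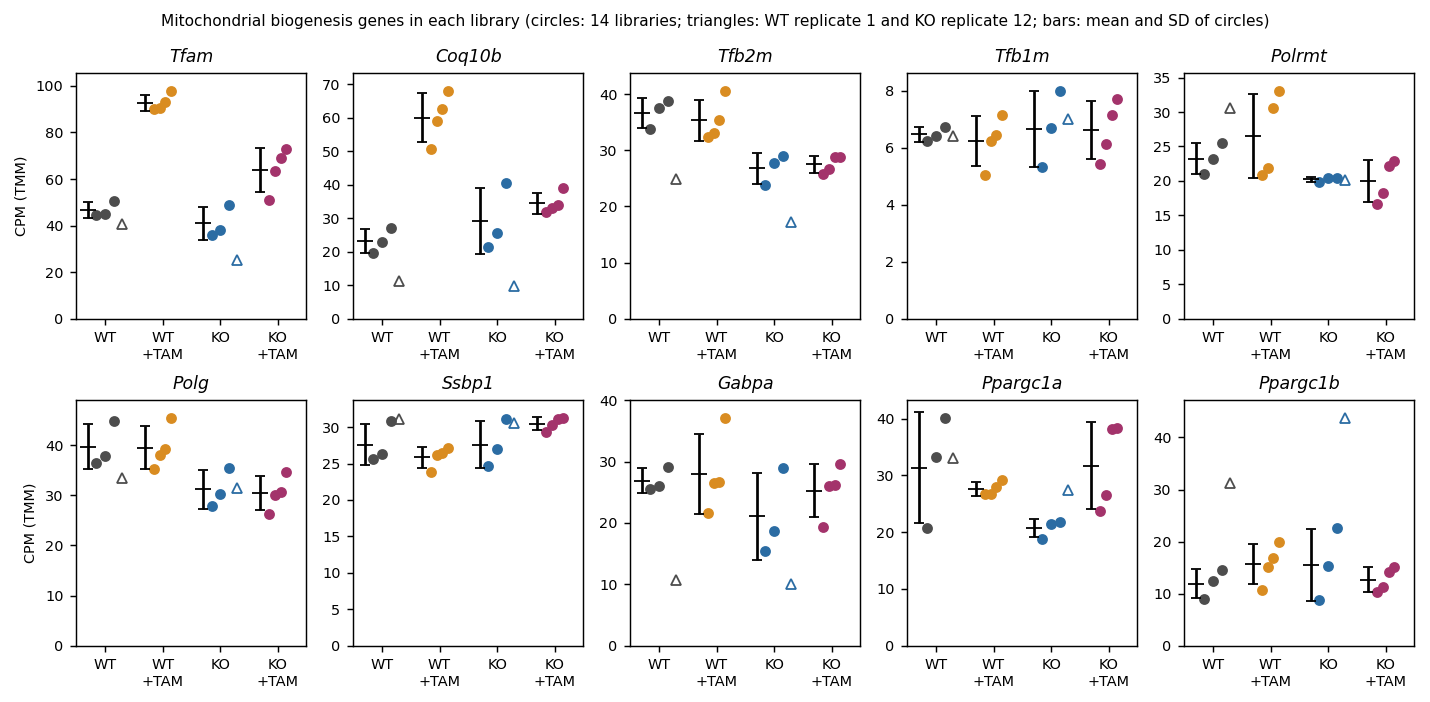
Level of each of the 10 members in each library (CPM, linear axis from 0) for the 4 groups. Filled circles are the 14 libraries, bars their group mean and SD, and open triangles WT replicate 1 and Mtm1 KO replicate 12. Tfam and Coq10b stand apart in WT + TAM, with 92.9 and 59.99 CPM on average against 46.7 and 23.2 in WT, and Tfb2m is lower in the knockout groups.

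The other 8 members had log2 fold changes of -0.20 to 0.38 with tamoxifen in WT mice, with a median of -0.04 beside a median of -0.00 over all genes tested. For each of the 8 the WT and WT + TAM libraries overlapped. Tfam and Coq10b, which chose the set, were 2 of the 19 genes of 14544 (0.131%) that passed the threshold used throughout, an adjusted p of at most 0.01 by edgeR's quasi-likelihood test. With 1 library left out, each of the 2 passed it in 1 of 7 fits, with adjusted p values of 0.00432 to 0.026 in the same test and 2 to 21 genes called in all. As the same libraries chose both genes, these calls restate the choice and are no test of it. In 5.16% of all genes every WT + TAM library was above every WT library. In Mtm1 KO mice these 8 members ranged from -0.31 to 0.60, with a median of -0.00. There 0 of 15062 genes (0%) passed the threshold, with 1137 at an unadjusted p under 0.05, 72 called by DESeq2 and 72 by edgeR's exact test, and in 4.08% every treated library was above every untreated one, Tfam and Ppargc1a among them.

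Among the members that act on the mitochondrial genome itself, the transcription start factor Tfb2m had a log2 fold change with tamoxifen of -0.06 (SE 0.11) in WT and 0.02 (SE 0.12) in Mtm1 KO mice. Tfb1m, the ribosomal RNA methyltransferase, differed by -0.06 (SE 0.17) and -0.03 (SE 0.19). Polrmt, the mitochondrial RNA polymerase, differed by 0.18 (SE 0.18) and -0.04 (SE 0.14), and its 4 WT + TAM libraries were spread from 20.8 to 33.0 CPM. Polg, the catalytic subunit of the DNA polymerase, differed by -0.02 (SE 0.12) and -0.05 (SE 0.13). Ssbp1, which covers single-stranded DNA during replication, differed by -0.10 (SE 0.11) and 0.12 (SE 0.12). Each of these values was about the size of its own SE or smaller.

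The upstream regulators had values of both signs with tamoxifen, and only that of Ppargc1a in Mtm1 KO mice was large beside its SE. Ppargc1a, which encodes PGC-1α, was at 40.0, 20.8 and 33.2 CPM in WT and between 26.6 and 29.2 CPM in WT + TAM. It was at 21.8, 21.5 and 18.8 CPM in Mtm1 KO and at 38.1, 26.5, 23.8 and 38.4 CPM in Mtm1 KO + TAM. The treated knockout libraries were all above the untreated ones, a log2 fold change of 0.60 (SE 0.19), whereas the WT groups overlapped, with -0.20 (SE 0.20). Ppargc1b, which encodes PGC-1β, had the opposite signs, 0.38 (SE 0.24) in WT and -0.31 (SE 0.27) in Mtm1 KO mice, with overlapping groups in both. These signs changed with the libraries used. In Mtm1 KO mice Ppargc1b was at 0.08 without replicate 10 and at -0.58 without replicate 11. In WT mice Ppargc1b was at 0.19 to 0.55 with 1 library left out. It was at -0.12 with 16 libraries, which adds WT replicate 1, the library with Mtm1 counts against its label. Ppargc1a in WT mice was at 0.03 without replicate 2. Gabpa, the DNA-binding subunit of GABP, differed by 0.05 (SE 0.16) and 0.25 (SE 0.21), also with overlapping groups.

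**Figure D2:**
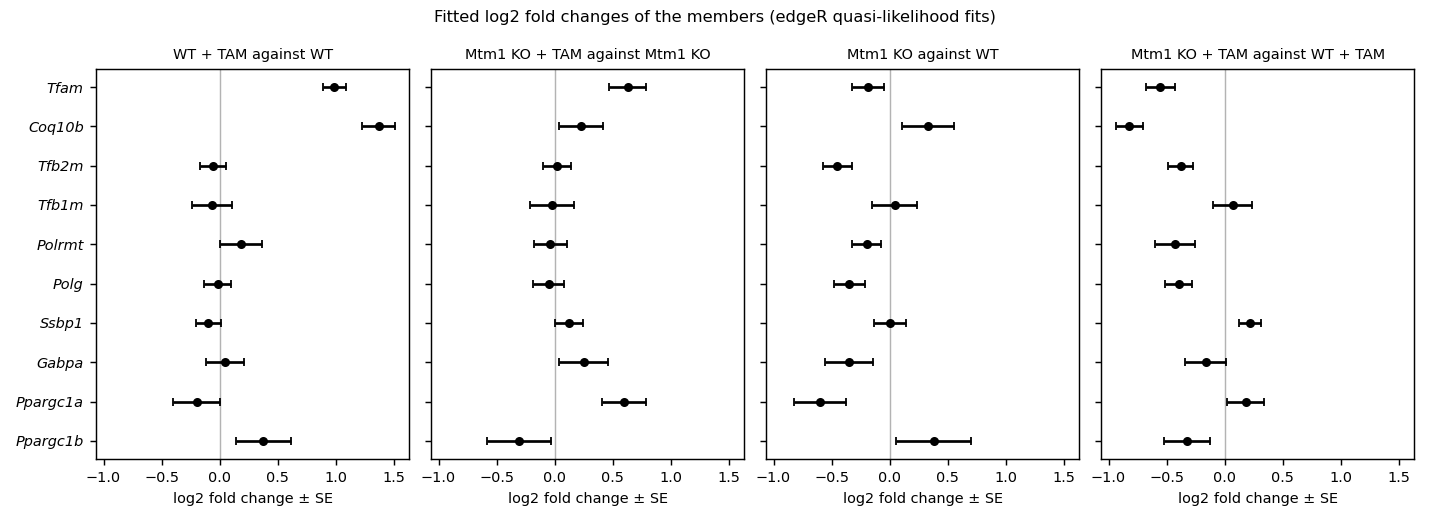
Fitted log2 fold change of each member (points, bars ± SE) in the 4 comparisons of 2 groups. In the tamoxifen comparison of WT mice Tfam (0.99) and Coq10b (1.37) lie away from the other 8 members (-0.20 to 0.38), and in the last comparison Coq10b (-0.82) and Tfam (-0.55) are the lowest.

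The tamoxifen effect of Coq10b was smaller in Mtm1 KO than in WT mice by 1.13 on the log2 scale, a difference of effects of -1.13 (SE 0.25). For Tfam it was -0.34 (SE 0.19), for Ppargc1a 0.80 (SE 0.29) and for Ppargc1b -0.68 (SE 0.40), and for the other 6 members it lay between -0.20 and 0.24. These are descriptions, as they combine the comparisons that chose the members. Over all genes the difference of effects passed the threshold in 0 of 15556 (0%), with 664 at an unadjusted p under 0.05 in the same edgeR fit; no other tool was run on it.

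Summed levels of markers of other cell types also differed between the groups compared. With tamoxifen in WT mice, the summed level of 6 fat cell markers was 369 to 1687 CPM against 83.7 to 1029 CPM in WT, and that of 5 endothelial markers was 225 to 285 CPM against 288 to 419 CPM. The 5 fibroblast markers summed to 2595 to 4043 CPM with tamoxifen and to 4342 to 5191 CPM without. The endothelial and fibroblast sums did not overlap between the groups, and the fat cell sums did. Of the single markers 0 passed the threshold. By the quasi-likelihood test 1 fat cell, 4 endothelial and 1 fibroblast marker had an unadjusted p under 0.05, beside 10.7% of all genes. The fibroblast sum was mostly Col1a1 and Col3a1 (means of 1815 and 2155 CPM in WT). Of the fibroblast markers 4 were lower with tamoxifen and 1, Pdgfra, was higher. The part of these cells in the levels of Tfam and Coq10b was not tested. Slow and 2A fiber markers, 7 genes, were at 25.5 to 1982 CPM in WT and at 1190 to 3242 CPM in Mtm1 KO libraries, a wide range within 1 group as well.

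**Figure D3:**
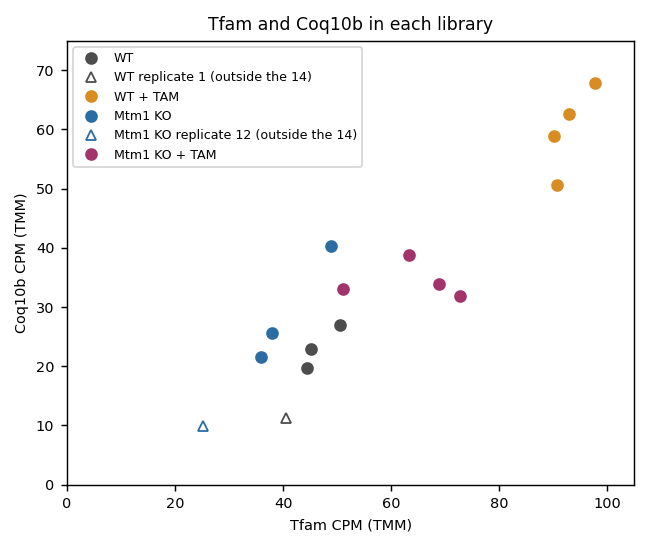
Coq10b level against Tfam level (both CPM) in each library, colored by group, with open triangles for WT replicate 1 and Mtm1 KO replicate 12. The 4 WT + TAM libraries lie at the upper right, from 90.1 to 97.6 CPM for Tfam and from 50.7 to 67.8 CPM for Coq10b, and the Mtm1 KO + TAM libraries lie between them and the untreated ones for Tfam.

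Over the same libraries that chose both genes, so that this restates the choice, the patterns of Tfam and Coq10b were set beside those of all other genes. Of 12816 genes with a mean of at least 1 CPM, Tfam was the gene whose pattern over the 14 libraries was most like that of Coq10b, by Pearson correlation of log2 CPM (r = 0.894, Spearman's rho 0.877). The libraries share their groups, and once each group's mean was taken off, r was 0.62. The next genes for Coq10b were Rnf185, an E3 ubiquitin ligase (r = 0.893), and Odc1, ornithine decarboxylase of polyamine synthesis (r = 0.879). For Tfam the order was Rnf185 (r = 0.936), Fbp2, the muscle fructose-1,6-bisphosphatase (r = 0.931), and Flrt1, a cell surface protein with leucine-rich repeats (r = 0.921), and Coq10b came 8th. The other members ranked from 1784th for Polrmt (r = 0.457) to 8501st for Ssbp1 (r = -0.185). With group means taken off, r with Tfam was 0.177 to 0.267 for these top 3 genes, and 0.326 for Tfb2m, 0.266 for Polrmt, 0.253 for Gabpa and 0.241 for Polg, so that the top 3 no longer stood above these members. For Coq10b, beside 0.62 for Tfam, it was 0.525 for Rnf185, 0.0727 for Odc1, 0.453 for Polg, 0.445 for Tfb1m, 0.442 for Ssbp1 and 0.427 for Gabpa. The remaining members lay between -0.217 (Polrmt) and 0.168 (Tfb2m). Values with group means taken off were not ranked over all genes.

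Levels can be compared between genes only per length, on the deposited RPKM scale (reads relative to gene length and library size). In WT muscle Tfb2m was the highest member with 12.02 ± 0.63 RPKM (SD, n = 3), followed by Tfam with 9.65 ± 0.13 and Ssbp1 with 7.63 ± 0.22, and these 3 did not overlap. Polg, Polrmt, Tfb1m, Coq10b, Ppargc1a and Gabpa followed between 5.31 and 4.34 RPKM, each overlapping the next, and Ppargc1b was lowest with 2.79 ± 0.82. In WT + TAM muscle Tfam came first with 19.1 ± 0.44 RPKM (n = 4), above every library of Tfb2m (11.5 ± 1.21), and Coq10b moved from the seventh to the third place with 11.4 ± 1.26, overlapping Tfb2m. In Mtm1 KO muscle Tfb2m (10.9 ± 0.81, n = 3), Tfam (10.6 ± 1.76) and Ssbp1 (9.49 ± 0.83) overlapped one another in turn. In Mtm1 KO + TAM muscle Tfam was again first with 15.7 ± 1.84 RPKM (n = 4), above all libraries of Tfb2m (10.8 ± 0.75), with Coq10b after Ssbp1 at 7.85 ± 0.73. Coq10a, the paralog of Coq10b, had far more RNA than Coq10b on this scale, 120 to 170 RPKM in WT, and 96.8 to 125 RPKM in WT + TAM.

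The effect of the Mtm1 deletion was compared in untreated muscle, which the choice of members did not use, apart from the libraries that Tfam and Coq10b share with it. Of the 10 members 0 passed the threshold in edgeR's quasi-likelihood test, beside 531 of 14740 genes (3.60%), and DESeq2 and the exact test also called 0. At an unadjusted p under 0.05 there were 3, Tfb2m, Polg and Ppargc1a, beside 30.1% of genes, and at an adjusted p of 0.05 there was 1, Tfb2m, beside 12.8%. Tfb2m was at 33.7, 38.9 and 37.5 CPM in WT and at 27.7, 23.8 and 29.0 CPM in Mtm1 KO, a log2 fold change of -0.45 (SE 0.13; adjusted p = 0.0474 by the quasi-likelihood test). Tfb2m, Polg and Polrmt were lower in every knockout library than in every WT library, as were 17.0% of all genes. An exact two-sided permutation test of 3 against 3 libraries gave p = 0.1 for each, the smallest that 20 splits allow. Ppargc1a differed by -0.60 (SE 0.22; adjusted p = 0.108 by the same test) with overlapping groups, since WT replicate 3 was as low as the knockout. Polg was at 37.9, 44.7 and 36.4 CPM in WT and at 35.3, 27.8 and 30.3 CPM in Mtm1 KO, a log2 fold change of -0.35 (SE 0.13; adjusted p = 0.12 in the same test). The other members ranged from -0.35 for Gabpa to 0.38 for Ppargc1b, with Tfam at -0.19 (SE 0.14) and Coq10b at 0.33 (SE 0.22). Without replicate 9 Coq10b was at 0.04, and without replicate 10 at 0.51, and Tfam ranged from -0.32 to -0.10 with 1 library left out.

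Under tamoxifen, Coq10b was the 1 member that passed the threshold between Mtm1 KO + TAM and WT + TAM, beside 6.72% of 14563 genes. At an adjusted p of 0.05 there were 4 members, beside 17.0%. Its log2 fold change was -0.82 (SE 0.12; adjusted p = 0.00135 by the quasi-likelihood test), or 0.566-fold, and Tfam followed with -0.55 (SE 0.12; adjusted p = 0.0115 by the same test). The treated libraries that give these values are among those that chose both genes, so they are no independent evidence. Tfb2m was at 35.5, 40.5, 33.1 and 32.4 CPM in WT + TAM and at 26.6, 28.8, 25.9 and 28.7 CPM in Mtm1 KO + TAM, a log2 fold change of -0.38 (SE 0.11; adjusted p = 0.0315 in the same test). Polg differed by -0.40 (SE 0.12; adjusted p = 0.0388 in that test). In 5 of the 10 members the groups did not overlap, namely Tfam, Tfb2m, Polg and Coq10b, which were lower in the knockout, and Ssbp1, which was higher, with 29.3 to 31.2 CPM against 23.8 to 27.1 CPM. Over all genes the groups did not overlap in 22.4%, and the knockout was lower in 10.6%. For a gene without overlap, an exact two-sided permutation test of 4 against 4 libraries gave p = 0.0286, the smallest that 70 splits allow.

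Fitted over all 14 libraries with treatment as a term, a fit chosen after the data had been seen, the genotype effect passed the threshold for 3 of the 10 members, all lower in the knockout, beside 20.2% of 15556 genes, or 10.7% called lower. Tfb2m fell by 0.42 on the log2 scale (SE 0.074; adjusted p = 4.42e-04 by the quasi-likelihood test) and Polg fell by 0.39 (SE 0.083; adjusted p = 0.00198 by the same test). Tfam, at -0.41 (adjusted p = 0.00451 by the same test), is a description. Tfb2m was the only member in which the 7 knockout libraries lay wholly below the 7 WT libraries, as in 5.15% of genes. Polrmt, at -0.34 (SE 0.12; adjusted p = 0.0313 by that test), did not pass. These decreases are relative to the other genes: scaled by library size alone, the median of all genes moved to 0.31 in this fit, Tfb2m was at -0.12 and Polg at -0.08, neither past the threshold, and Ssbp1 was the 1 member called, at 0.42. With that scaling 5212 of 15556 genes were called in either direction. In the same libraries the 9 muscle fiber markers summed to 194000 to 271300 CPM in WT and to 117300 to 139500 CPM in Mtm1 KO, while 6 immune cell markers summed to 99.8 to 117 CPM in WT and to 143 to 172 CPM in Mtm1 KO, without overlap. In the fit with treatment as a term 8 of the 9 muscle fiber markers were called lower in the knockout. In that fit 2 of 5 immune markers tested and 3 of 5 fibroblast markers were called higher, beside 20.2% of all genes called in either direction. The 5 fibroblast markers summed to 4342 to 5191 CPM in WT and to 3480 to 4765 CPM in Mtm1 KO, with a lower mean in the knockout. The part of these shifts in the members' values was not tested.

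Some members share sequence with other genes, which the counting may have split. Tfb2m shares 31.9% of its 50-base exon stretches with Gm1818, which had 25 to 58 counts in libraries where Tfb2m had 728 to 1000. Polg overlaps Fanci on the opposite strand, with 6.42% of its stretches, Coq10b overlaps E330011M16Rik with 6.13%, and Gabpa overlaps Atp5j with 4.46%. The strand setting of the counting is not given in the sources used here, so reads there cannot be told apart if strand was not used. Tfam, on chromosome 10 from 71225464 to 71238280 on the minus strand with 7 exons, shares 0.0678%.

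The libraries left out by the study stood apart in several members. WT replicate 1 and Mtm1 KO replicate 12 were below all 14 others for Coq10b, with 11.2 and 9.81 CPM, and for Gabpa, with 10.7 and 10.1 CPM against a lowest value of 15.5. Both were above all 14 others for Ppargc1b, with 31.3 and 43.7 CPM against a highest value of 22.5. For Tfam they were at 40.5 and 25.1 CPM, each below its labelled group. RNA of the mitochondrial genome was 2.87% and 2.35% of their counts, against 3.51% to 6.65% in the 14. With both added, the tamoxifen values became 1.03 for Tfam and 1.57 for Coq10b in WT mice, and 0.77 and 0.49 in Mtm1 KO mice.

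Beyond the members, 124 genes in 7 lists of mitochondrial upkeep were read. With tamoxifen in WT mice 0 of the 124 passed the threshold in the quasi-likelihood test, with 14 at an unadjusted p under 0.05 beside 10.7% of all genes, 1 called by DESeq2 and 0 by the exact test. In Mtm1 KO mice it was 0, with 12 at an unadjusted p under 0.05 beside 7.55% of all genes, 1 called by DESeq2 and 1 by the exact test. The 22 biogenesis regulators had a median log2 fold change of 0.09 in WT and 0.03 in Mtm1 KO mice, and the 12 genes of coenzyme Q synthesis one of -0.15 and -0.03, beside -0.00 and -0.01 over all genes. The medians of the lists for replication, transcription, import and quality control, and fusion, fission and mitophagy lay between -0.03 and 0.03 in WT mice and between 0.02 and 0.09 in Mtm1 KO mice. The highest value in these lists in WT mice, named after its value was seen, was that of the corepressor Nrip1, with 1.25 (SE 0.37) in WT and 0.64 (SE 0.16) in Mtm1 KO mice. Peo1, the Twinkle helicase of mitochondrial DNA and the gene that DESeq2 called in WT mice, was at 0.59 (SE 0.12) and 0.60 (SE 0.14). Coq10a was at -0.37 (SE 0.14) in WT mice, opposite in sign to Coq10b, and at -0.06 (SE 0.17) in Mtm1 KO mice.

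**Figure D4:**
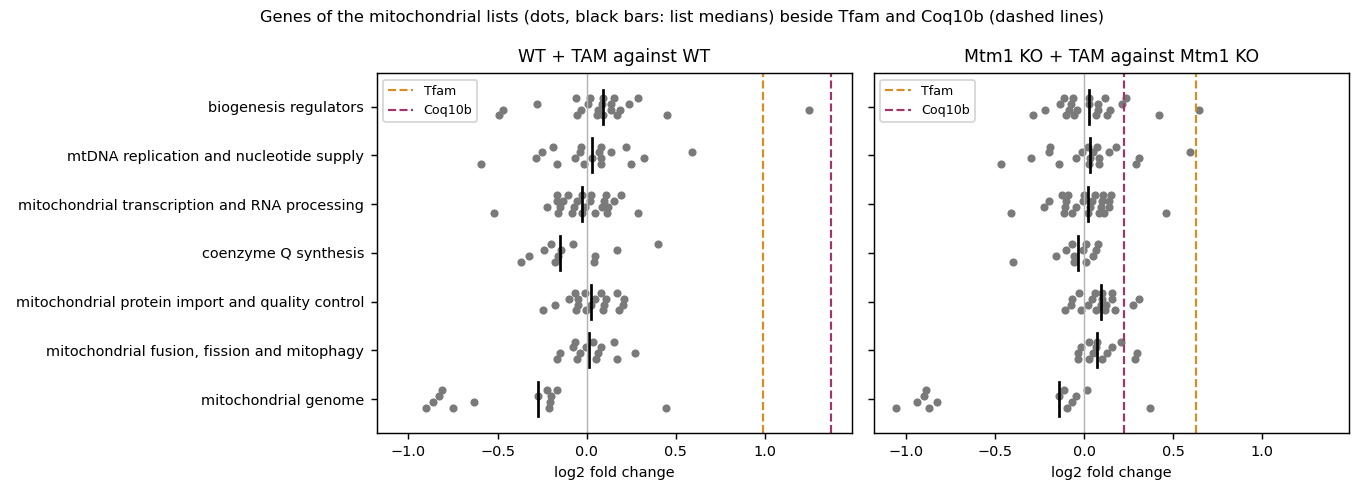
Log2 fold change with tamoxifen of each gene in 7 lists (dots, with the list median as a black bar) in WT and in Mtm1 KO mice, with Tfam and Coq10b as dashed lines. In WT mice 1 gene of the lists, Nrip1 at 1.25, lies beyond Tfam, and the mitochondrial genome list lies to the left, with a median of -0.27.

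TFAM helps to transcribe the 13 protein genes of the mitochondrial genome. Of these genes 12 had negative log2 fold changes with tamoxifen in WT mice and 11 in Mtm1 KO mice, with medians of -0.27 and -0.14. The exception in WT mice, named after its value was seen, was mt-Nd6, a complex I subunit, at 0.44 (SE 0.15), and it was at 0.37 (SE 0.25) in Mtm1 KO mice. In each genotype 6 had an unadjusted p under 0.05, beside 10.7% and 7.55% of all genes, with mt-Nd6 among the 6 in WT mice, while 0 passed the threshold in the quasi-likelihood test, 0 in either other tool in WT mice and 1, mt-Co2, in both other tools in Mtm1 KO mice. Among the 6 in both genotypes were mt-Co2, mt-Co3, mt-Atp6, mt-Nd3 and mt-Atp8, all with few counts beside mt-Co1. In Mtm1 KO replicate 9 mt-Co2 had 4118 and mt-Atp8 355, against 576396 for mt-Co1. The genes with many counts, mt-Co1, mt-Cytb, mt-Nd1, mt-Nd2, mt-Nd4 and mt-Nd5, lay between -0.27 and -0.17 in WT and between -0.14 and 0.01 in Mtm1 KO mice. Sequence shared by these genes was not searched. The groups' summed shares of all counts were 5.42% ± 1.27 (SD, n = 3) in WT, 4.68% ± 0.46 (n = 4) in WT + TAM, 4.72% ± 0.79 (n = 3) in Mtm1 KO and 4.27% ± 0.88 (n = 4) in Mtm1 KO + TAM, all overlapping. Between untreated genotypes the lowest p in this list belonged to 2 subunits of complex I, mt-Nd5 at -0.89 (SE 0.19) and mt-Nd2 at -0.73 (SE 0.18), neither past the threshold in the quasi-likelihood test and both called by DESeq2 and the exact test.

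With the Mtm1 deletion in untreated muscle, 2 of the 124 list genes passed the threshold, beside 3.60% of all genes, both higher: Adck4, a kinase-like protein of coenzyme Q synthesis, by 1.503 (SE 0.175; adjusted p = 0.00158 by the quasi-likelihood test), and Prkaa1, a catalytic subunit of the energy sensor AMPK, by 0.75 (SE 0.14; adjusted p = 0.00998 by the same test). DESeq2 called 13 of the 124 and the exact test 10, beside 11.4% and 9.85% of all genes. Under tamoxifen 4 of the 124 passed, beside 6.72% of all genes. The transcription factors Myc, at 1.26 (SE 0.20), and Mef2c, at 0.60 (SE 0.11), were higher, and the mitophagy kinase Pink1, at -0.65 (SE 0.11), and the inner membrane protease subunit Spg7, at -0.48 (SE 0.10), were lower, with 16 and 12 calls by the other tools, beside 13.7% and 12.5% of all genes. In the lists of mitochondrial DNA replication and of transcription no gene passed in either comparison of genotypes by the quasi-likelihood test. There the lowest p in untreated muscle belonged to Slc25a4, the ADP/ATP carrier, at -0.63 (SE 0.16), to Mgme1, a mitochondrial exonuclease, at -0.68 (SE 0.20), to Grsf1 of the RNA granules at -0.51 (SE 0.16) and to Trmt10c of tRNA processing at -0.33 (SE 0.15).

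The 14 genes of mitochondrial fusion, fission and mitophagy had a median log2 fold change of -0.31 between genotypes in untreated muscle and -0.26 under tamoxifen, beside 0.02 and -0.01 over all genes. With treatment as a term 7 of the 14 were called lower and 0 higher, beside 10.7% of all genes called lower, whereas with library size only 1 was called lower and 2 higher, and the medians were 0.01 untreated and 0.02 under tamoxifen, beside 0.33 and 0.27 over all genes. By the fit with treatment as a term 2 of the 19 genes of mitochondrial DNA replication and 1 of the 25 genes of mitochondrial transcription and RNA processing were called lower and 0 higher, beside the same 10.7%, and with library size only 0 of either were called lower and 1 and 5 were called higher. Of the remaining lists, that fit called 4 of the 22 biogenesis regulators higher and 2 lower, 1 of the 12 coenzyme Q genes higher and 3 lower, 1 of the 19 genes of protein import and quality control higher and 5 lower, and 2 of the 13 mitochondrial genome genes lower, while with library size only the counts were 4 higher, 3 higher, 5 higher and 1 higher in the same order, with 0 lower in each. Over all genes 3137 of 15556 (20.2%) were called in either direction by that fit, and 5212 of 15556 with library size only.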

How the data were processed

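Quadriceps RNA (TruSeq RNA kit) was sequenced from 16 mice. Per the labels and the study's methods, the authors aligned reads to GRCm38 with STAR (2.5.0c in the processing notes, which also list bcl2fastq 2.17 and Cufflinks 2.2.1) and deposited raw counts per gene from HTSeq. The deposited RPKM values divide by total counts without further scaling. The annotation, strand setting and gene lengths were not given in the sources used here.

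Here 14 libraries were tested in pairs with edgeR 4.0.16 (R 4.3.3; TMM, filterByExpr with a minimum count of 10 and total of 15, quasi-likelihood test, Benjamini-Hochberg over all genes, threshold 0.01). SE is the log2 fold change over the square root of F. DESeq2 1.42.0, edgeR's exact test and limma 3.58.1 on log2(RPKM + 0.1) were alternatives. The test was tried on simulated counts first. The members, the lists and the tests were chosen with earlier results of these data known. Named were all members, up to 4 called genes per list and comparison with the lowest p (2 with the lowest p where a list had none), and the 3 genes most correlated with Tfam and with Coq10b; Coq10a, Nrip1 and Peo1 were added. The study describes the mice as littermates but no source used here ties a library to a litter, so litter was not a term. The edgeR p-values weigh a group difference against the spread between these libraries, estimated with the help of all genes. Spread between litters cannot be told apart in it.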

Additional observations from a re-analysis of the deposited data

How the results depend on the processing

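No paired analysis was possible because the groups compared share no replicate numbers. Between untreated genotypes the number of members called was 0, and it was 1 at an adjusted p of 0.05 and 3 with treatment as a term (chosen after seeing the data). Between treated genotypes it was 1, and 4 at an adjusted p of 0.05. It was 2 with library size only, with no filter, with DESeq2, with the exact test and with 1 fit over all 4 groups. The second member was not the same in each of these. Over the 10 other settings of scaling, filter and tool Coq10b passed in 8, Tfam, lower in the knockout, in 4, and Ssbp1, higher in the knockout, in 3. With treatment as a term the number of members called was 3, beside 3137 of 15556 genes, and 1 with library size only, beside 5212. Leaving out 1 library gave 0 and 0, 1 and 1, and 2 and 3 as the lowest and highest counts for these 3 comparisons.

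Untreated genotype values changed sign for Tfam (0.13 with library size only, 0.11 and 0.11 in limma on log2(RPKM + 0.1) and log2(RPKM + 1)) and for Polrmt (0.11, 0.12 and 0.10). Ssbp1, near 0, changed sign with RLE (-0.013), upper quartile (-0.0025), DESeq2 (-0.013), 1 fit over all groups (-0.021) and 16 libraries (-0.0092). With 1 library left out Ssbp1 ranged from -0.095 (without replicate 11) to 0.082, Tfb1m from -0.091 (without replicate 9) to 0.18, and Ppargc1b from -0.0042 (without replicate 10) to 0.65. With treatment as a term Ppargc1b was at -0.036 and Coq10b at -0.35. Between treated genotypes Gabpa was at 0.12, 0.12 and 0.10 with library size only and in the 2 limma settings, and Tfb1m ranged from -0.019 (without replicate 8) to 0.16. Coq10b there missed the threshold in limma (adjusted p = 0.0104 and 0.0108, against 0.000887 to 0.00754 with 1 library left out). With library size only the all-gene median was 0.33 between untreated and 0.27 between treated genotypes; the cause of each change was not tested otherwise. In the 2 tamoxifen comparisons no alternative turned the sign of Tfam or Coq10b, while each of the other members except Ssbp1 turned sign in at least 1 alternative of at least 1 of them. All-gene calls at 0.01 with DESeq2 were 1678, 1995, 214 and 72 (untreated genotypes, treated genotypes, tamoxifen in WT, tamoxifen in Mtm1 KO) against 531, 979, 19 and 0. With 3 or 4 libraries a group, a difference that missed the threshold does not show that a member did not differ.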
